A study of Mus musculus with 4 samples.

Results

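Caveolins, cavins and the genes of their closest partners were followed in Sca-1 cells from failing and healthy mouse hearts. The set holds 9 genes chosen by name, namely Cav1, Cav2, Cav3, Cavin1, Cavin2, Cavin3, Cavin4, Ehd2 and Plvap, which are read by 18 of the 45037 probe sets of the array table. In Cyc mice a Cyclin T1 and a Gαq transgene are both driven by the αMHC promoter, which acts in cardiomyocytes, and the mice develop heart failure. Wt mice were healthy wildtypes. Both were FVB mice of either sex aged 6 weeks. Sca-1 cells, named after the surface antigen used to sort them magnetically and described by the labels as undifferentiated progenitor cells, were pooled from 2 to 3 hearts, and RNA of the fresh cells was labelled for GeneChip Mouse 430 2.0 arrays. There were 2 pools per genotype, so p-values measure only spread between these pools, taken in part from other probe sets. The number of arrays limits all precision.

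Caveolae are small flask-shaped pits of the plasma membrane that are abundant in endothelium, adipocytes and muscle. Caveolins are membrane proteins that shape the pit, cavins form its outer coat, and Ehd2, an ATPase, sits at its neck and holds it at the membrane. Plvap, also called PV-1, forms the thin diaphragms that span the mouths of endothelial caveolae and the fenestrae of permeable capillaries. Cav3 and Cavin4 are the muscle members of their families, while Cav1, Cav2, Cavin1 and Cavin2 are widely expressed, not least in endothelial cells of the heart.

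In mouse the genes Cav2 and Cav1 are next to each other on chromosome 6, on the same strand. The 250 bases before the start of both genes are shown because both were bright and differed little between the genotypes, and those of Cavin2 because it was the coat gene with lower readings in Cyc cells at all its probe sets. RefSeq promoter entries on GRCm38.p6 were found for 7 of the 9 genes. Capitals mark the GC box (GGGCGG), the TATA box (TATAAA) and the CCAAT box, searched on both strands. The upstream one of 2 starts is used for Cav1.
Cav2 (chr6:17280935-17281184, plus strand): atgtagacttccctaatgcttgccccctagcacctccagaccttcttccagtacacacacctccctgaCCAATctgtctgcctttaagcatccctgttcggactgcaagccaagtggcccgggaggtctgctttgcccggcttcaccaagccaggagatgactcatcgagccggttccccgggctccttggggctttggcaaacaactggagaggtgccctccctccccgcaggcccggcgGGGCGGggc
Cav1 (chr6:17306085-17306334, plus strand): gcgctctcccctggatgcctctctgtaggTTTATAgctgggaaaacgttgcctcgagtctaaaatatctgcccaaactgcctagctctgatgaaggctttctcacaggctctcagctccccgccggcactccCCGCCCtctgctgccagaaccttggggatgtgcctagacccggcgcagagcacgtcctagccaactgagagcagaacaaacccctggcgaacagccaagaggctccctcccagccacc
Cavin2 (chr1:51288876-51289125, plus strand): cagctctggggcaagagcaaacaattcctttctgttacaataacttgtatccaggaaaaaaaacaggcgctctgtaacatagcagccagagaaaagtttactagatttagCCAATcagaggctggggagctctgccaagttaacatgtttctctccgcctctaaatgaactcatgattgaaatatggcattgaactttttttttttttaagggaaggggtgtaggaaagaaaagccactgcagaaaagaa
The Cav2 sequence holds a GC box and a CCAAT box, and that of Cav1, both on the other strand, a GC box and a TATA box near the far end. Cavin2 has a CCAAT box and neither of the others. Of all 32851 promoters of this length in the table, 32.7% hold the GC box, 12.4% the TATA box and 33.8% the CCAAT box. Cav2 and Cav1 have 10 CpG dinucleotides each and a GC content of 62.0% and 59.6%, against 2 and 40.4% for Cavin2 and medians of 6 and 52.4% over all promoters. These are descriptions of sequence alone, since the arrays measured nothing at the promoters.

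The deposited values are intensities on a linear scale, and an intensity under 50 is treated here as near background. At 50 or more on at least 2 arrays, 13 of the 18 probe sets were tested, together with all others that met this minimum (20680 in all). The tested ones stand for 7 of the 9 genes. Intensities had 16 added before log2 and were fitted with limma, a scale on which the change of a dim probe set appears smaller than it is. Limma draws the spread of a probe set towards that of all tested ones. Its intervals thus do not rest on the pools of that probe set alone. The thresholds were those of the study's methods, 2-fold and an unadjusted p under 0.05. The same replicate number was taken as the same independent experiment, so that each experiment had 1 Cyc and 1 Wt pool. Where a probe set is called the brightest or intensities are summed, this refers to the deposited intensity and not to the amount of transcript, since probes differ in brightness.

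Plvap, the diaphragm gene, was called higher in Cyc cells, while no caveolin, cavin or Ehd2 probe set passed the thresholds in either direction. Of the 13 tested probe sets 1 was called higher, against 0.735% of all tested probe sets, and none lower, against 0.116%. No probe set of these genes passed correction for multiple tests, as every adjusted p in the limma fit was 1. The median log2 fold change of the 13 was -0.07, beside -0.02 over all tested probe sets. Within experiments 1 and 2 the median over all tested probe sets was -0.10 and 0.06, and it became 0.04 and -0.04 with scaling to the same median, so that the sign of small differences depends on the scaling.

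Plvap is read by a single probe set, 1418090_at. Its intensity was 724.2 and 1070.5 in the Cyc pools of experiments 1 and 2, and 329.4 and 380.8 in the Wt pools. Both Cyc pools lay far above both Wt pools, and the 2 Wt pools differed little from each other. The means were 897 ± 245 in Cyc and 355 ± 36.4 in Wt cells (SD, n = 2 pools each). On the log2 scale Plvap was higher by 1.28 (standard error 0.29, 95% confidence interval from 0.51 to 2.04), which is 2.42-fold (limma, unadjusted p = 0.00844, adjusted p = 1). Within experiments 1 and 2 the log2 differences were 1.10 and 1.45. With the experiment as a block the fitted value was the same, with an interval from 0.77 to 1.79 and an adjusted p of 0.48 in limma. Blocked, 0.924% of all tested probe sets were called higher and 0.227% lower, and of these genes again only Plvap was called. Plvap was no longer called without the Wt pool of replicate 1 (1.18 on the log2 scale, unadjusted p = 0.0591 in limma) and without the Cyc pool of replicate 2, where it was just short of 2-fold at 0.999 on the log2 scale (unadjusted p = 0.017). The study's own gene lists, drawn from these same arrays, also include Plvap, so the arrays give no independent evidence of its direction. Gtpbp3, a neighbour whose gene overlaps that of Plvap in the RefSeq table, has 2 probe sets, of which only the brighter is given here. It was at 338.0 and 345.8 in Cyc cells against 332.6 and 240.0 in Wt cells. Both Cyc pools were above both Wt pools there, but it did not pass the thresholds.

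**Figure D1:**
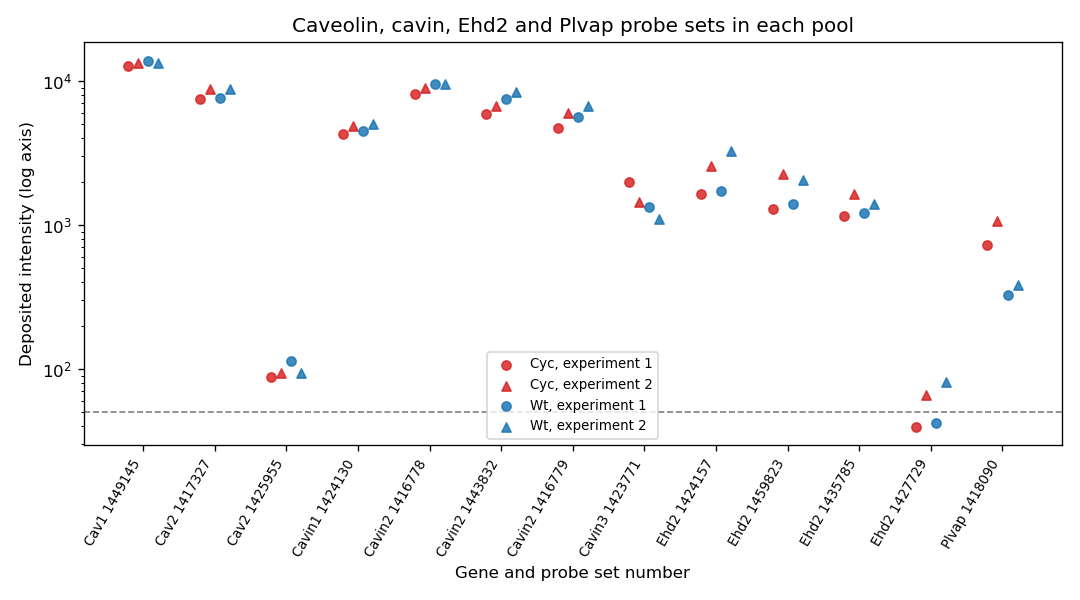
Deposited intensity (log axis) of the 13 tested probe sets by pool, where red stands for Cyc and blue for Wt, circles are experiment 1, triangles are experiment 2, and the dashed line is at 50. The Cyc pools of Plvap, at 724.2 and 1070.5, lie above its Wt pools at 329.4 and 380.8, whereas the brightest probe sets of Cav1, Cav2 and Cavin1 lie at nearly the same height in both pools of an experiment.

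The structural caveolins Cav1 and Cav2 were bright in every pool and differed little between the genotypes. Cav1, whose protein is the main scaffold of caveolae outside striated muscle, had intensities of 12795.3 and 13262.9 in Cyc cells against 13836.3 and 13431.7 in Wt cells. Both Cyc pools lay just below both Wt pools in the deposited values. Its fitted log2 difference was -0.07 (95% confidence interval from -0.65 to 0.51, limma, adjusted p = 1), so that a 2-fold change in either direction lies outside the interval. Cav2, which assembles with Cav1, was read at 7460.6 and 8836.8 in Cyc cells against 7575.3 and 8853.4 in Wt cells at its brighter probe set. Here the experiments differed more than the genotypes in the deposited values, and the log2 differences within experiments 1 and 2 were -0.02 and -0.003. With scaling to the same median these differences were 0.12 and -0.10. The fitted value was -0.01 (interval from -0.66 to 0.63), and its sign turned with scaling to the same median. The dimmer Cav2 probe set gave 88.7 and 94.0 in Cyc cells against 114.5 and 94.2 in Wt cells, with a fitted log2 difference of -0.16 (standard error 0.23).

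The coat gene Cavin1, whose product is needed to form caveolae, differed little as well. At 1424130_a_at it had intensities of 4307.7 and 4886.6 in Cyc cells against 4511.8 and 4994.8 in Wt cells. The groups overlapped, and the log2 fold change was -0.05 (interval from -0.66 to 0.56). Its other 2 probe sets lay under 50 in every pool and were not tested.

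Cavin2, a phosphatidylserine-binding coat protein prominent in endothelium, had lower readings in Cyc cells at all 3 of its probe sets and in both experiments, without passing the thresholds at any. The largest difference was at 1443832_s_at, with intensities of 5878.1 and 6669.1 in Cyc cells against 7531.9 and 8430.0 in Wt cells. Both Cyc pools lay below both Wt pools there, with log2 differences of -0.36 and -0.34 within the experiments and a fitted value of -0.35 (interval from -0.96 to 0.27, limma adjusted p = 1). At the brightest probe set, 1416778_at, the Cyc pools were at 8192.4 and 8969.0 and the Wt pools at 9470.8 and 9460.9. The groups were again apart, but the log2 fold change was only -0.14 (interval from -0.73 to 0.45). At 1416779_at the groups overlapped, with 4705.8 and 6033.9 in Cyc and 5671.9 and 6719.4 in Wt cells, and the fitted value was -0.21 (interval from -0.90 to 0.47). The 3 probe sets thus gave the same sign and different sizes. They read the same RNA of the same pools and are not independent.

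Cavin3, a coat protein known to bind protein kinase C delta, had higher readings in Cyc cells without passing the thresholds. Its intensity was 2004.3 and 1449.7 in Cyc and 1336.9 and 1108.3 in Wt cells. The Cyc pools were both above the Wt pools, though the Cyc pool of experiment 2 was only a little above the Wt pool of experiment 1. The log2 differences within the experiments were 0.58 and 0.38, and the fitted value of 0.48 (standard error 0.28, interval from -0.26 to 1.22) missed both thresholds (limma, unadjusted p = 0.152). With the experiment as a block the interval ran from -0.004 to 0.97 (limma, unadjusted p = 0.0513, adjusted p = 0.717).

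Separation of the groups was counted over all 13 tested probe sets. Both Cyc pools were above both Wt pools in 2, those of Plvap and Cavin3, against a share of 15.1% among all tested probe sets. They were below in 4, namely 1 of Cav1, the dim one of Cav2 and 2 of Cavin2, against 8.23%. These counts depend on the scaling. After quantile normalization Plvap alone was above and 1443832_s_at of Cavin2 alone below. The shares over all tested probe sets were then 13.8% above and 13.2% below. With scaling to the same median the probe sets above were those of Plvap and 1435785_at of Ehd2, against a share of 13.0%. Those below were then 1443832_s_at and 1416779_at of Cavin2, against 12.5%. Cavin3 overlapped under both scalings.

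In the deposited values, readings were higher in Cyc cells in both experiments for 2 probe sets, again those of Plvap and Cavin3 (26.1% of all tested probe sets), and lower in both for 9 from 5 genes (29.1%). The other 2, both of Ehd2, had opposite signs in the experiments. With scaling to the same median 4 were higher in both (27.15% of all tested probe sets), the added ones being these 2 of Ehd2. Lower in both were then 4 (28.81%), namely the dim one of Cav2 and the 3 of Cavin2. The remaining 5, of Cav1, Cav2, Cavin1 and Ehd2, then had opposite signs. After quantile normalization 2 were higher in both (26.5%) and 8 lower in both (30.8%), those of Cav1, Cav2 and Cavin1 among the latter. Plvap and Cavin3 thus kept higher and Cavin2 lower readings in both experiments under quantile normalization and under scaling to the same median.

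**Figure D2:**
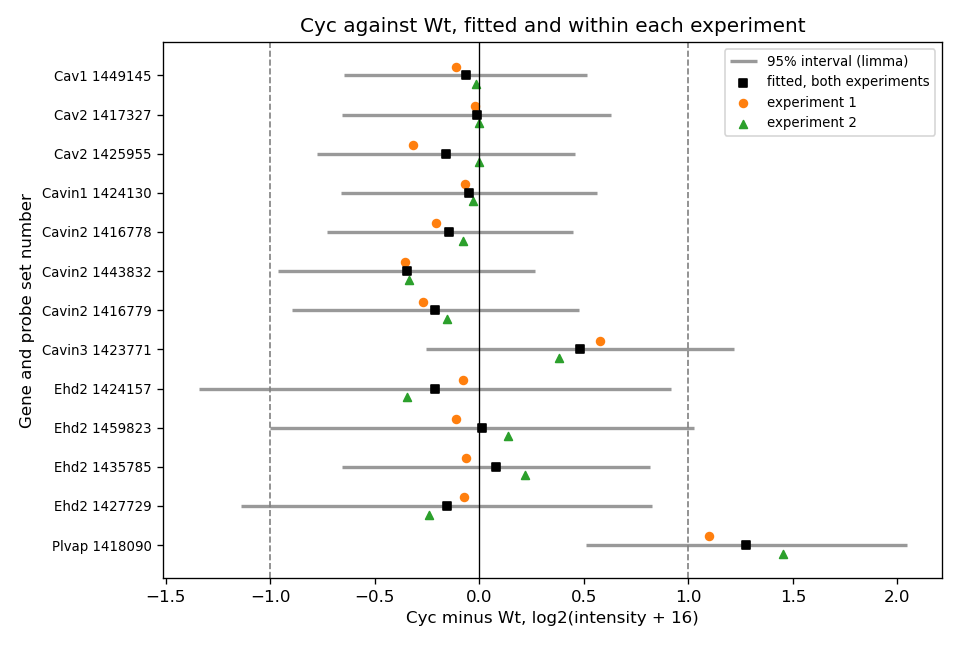
Cyc minus Wt differences of log2(intensity + 16) for the 13 tested probe sets, with black squares for the limma estimate, grey lines for its 95% confidence interval, orange circles and green triangles for experiments 1 and 2, and dashed lines at 2-fold. The interval of Plvap, from 0.51 to 2.04, lies wholly above 0, and those of the other 12 include 0.

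Ehd2, the ATPase of the caveolar neck, varied more between the experiments than between the genotypes in the deposited values. The arrays of experiment 2 were brighter as a whole. Over all tested probe sets the median intensity was 197.6 and 280.5 in the Cyc pools of experiments 1 and 2, and 219.4 and 260.7 in the Wt pools. At 1424157_at it had intensities of 1632.7 and 2578.3 in Cyc cells against 1723.2 and 3284.2 in Wt cells. Both pools of experiment 2 were well above both pools of experiment 1, and the unblocked interval of its log2 fold change of -0.21 was wide, from -1.34 to 0.92. With the experiment as a block it narrowed to a range from -0.71 to 0.28. At 1459823_at the Cyc pools were at 1287.6 and 2253.4 and the Wt pools at 1391.8 and 2045.1, and at 1435785_at they were at 1160.0 and 1635.4 and at 1211.8 and 1402.3. The fitted values of these probe sets, 0.01 and 0.08, lie on the other side of 0. A further dim probe set, at 39.6 and 66.3 in Cyc cells against 42.4 and 81.2 in Wt cells, had a fitted log2 difference of -0.16 (standard error 0.37), and the last one lay under 50 in every pool. No direction can be given for Ehd2.

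The muscle members lay under 50 in every pool, which is treated here as near background. Cav3, the caveolin of striated muscle, had intensities of 30.8 and 35.7 in Cyc cells against 19.7 and 16.8 in Wt cells. Both Cyc pools were above both Wt pools at these dim levels, and the difference was not tested. Cavin4, the muscle cavin, was below 0 in every pool, from -37.5 to -33.6. Cardiomyocyte transcripts were nevertheless present, as 5 of 8 markers of that cell type were read at 50 or more in every pool, Myh6, a myosin heavy chain of the heart, among them at 589.8 and 183.8 in Cyc cells against 480.4 and 227.0 in Wt cells. The summed intensity of all 8 ranged from 1225 to 2021 in Cyc and from 1647 to 2698 in Wt cells. Whether the Cav3 and Cavin4 probe sets would read these transcripts at such levels was not tested.

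Genes of this set are active in endothelial, mural and stromal cells, so markers of those cells are given beside them. In sorted pools, fewer cells of a type and less RNA per cell cannot be told apart. All 11 endothelial markers were read at 50 or more in every pool, with a summed intensity of 50256 and 53649 in Cyc cells against 54544 and 57118 in Wt cells. None passed the thresholds, and their median log2 difference was -0.15 and -0.09 in experiments 1 and 2. Cdh5, the cadherin of endothelial junctions and the brightest of them, was at 8279.8 and 9014.8 in Cyc cells against 8439.3 and 9156.9 in Wt cells. Of the 11 markers 7 had lower readings in both experiments and 1 had higher ones, against 29.1% and 26.1% of all tested probe sets. The endothelial median of experiment 1 was close to that of all tested probe sets (-0.10). With scaling to the same median the endothelial medians were -0.01 and -0.19, with 6 markers lower and 1 higher in both experiments. After quantile normalization the endothelial medians were -0.17 and -0.13, with 7 lower and 1 higher in both. Esam, an adhesion molecule of the same junctions, was at 8257.4 and 7125.8 in Cyc cells against 7997.9 and 7574.0 in Wt cells.

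Readings of mural markers, like those of Plvap, were higher in Cyc cells. All 7 tested markers of smooth muscle and pericytes had higher readings in Cyc cells in both experiments, against 26.1% of all tested probe sets. Their medians were 0.28 and 0.85 on the log2 scale. With scaling to the same median all 7 were again higher in both, with medians of 0.42 and 0.75. Both Cyc pools were above both Wt pools for 1 marker in the deposited values (15.1% of all tested probe sets). This count was 2 after quantile normalization (13.8%) and 6 with scaling to the same median (13.0%). Of the 7 markers 1 passed the thresholds, against 0.735% of all tested probe sets. This was Kcnj8, a potassium channel of pericytes, at 299.1 and 149.4 in Cyc cells against 112.2 and 65.1 in Wt cells. The summed deposited intensity of the list was 12626 and 23927 in Cyc and 10673 and 15096 in Wt cells, so the groups overlapped in this sum. Cnn1 was the 1 marker under 50 in every pool. Rgs5, a regulator of G-protein signalling typical of pericytes and the brightest of the list, was at 6110.4 and 9357.9 in Cyc cells against 5695.1 and 7176.5 in Wt cells. Of 8 fibroblast markers, all at 50 or more in every pool, Col1a1 (a chain of type I collagen) rose by 1.16 on the log2 scale and 7 did not pass. Gsn and Dcn, an actin-severing protein and a collagen-binding proteoglycan, were the brightest, with fitted log2 differences of -0.11 (standard error 0.26) and -0.01 (0.29). The summed intensity of the fibroblast list was 46680 and 44746 in Cyc and 51510 and 34454 in Wt cells. Pools labelled as Sca-1 progenitor cells thus carried both endothelial and fibroblast transcripts. Among the 6 tested cardiomyocyte markers Myl2, a myosin light chain, fell by 1.15 on the log2 scale. The part of mural cells and fibroblasts in the Plvap difference was not tested.

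Pools also differed in transcripts of cells from outside the vessel wall. The Cyc pool of experiment 2 and the Wt pool of experiment 1 held transcripts of airway epithelium, with a summed intensity of 16490 and 2814 for 9 alveolar and airway markers, against 483 and 297 in the other Cyc and Wt pool. In both of the former most of the sum came from Scgb1a1 and Scgb3a2, secretory proteins of airway club cells. Among the alveolar markers, those of the type I cells, which are rich in caveolae, were Hopx, Aqp5, Ager and Rtkn2. Hopx was at 243.7 and 350.4 in Cyc cells against 242.3 and 187.4 in Wt cells. It was thus read in pools with high and with low sums, and alone does not show type I cells. Aqp5, Ager and Rtkn2 were under 50 in every pool except for Aqp5 at 50.4 in the Cyc pool of experiment 2. Of the surfactant genes of type II cells, Sftpc was at 164.5 in that pool and at 8.0 or less in the others, Sftpb was at 73.4 and 128.4 in Cyc cells against 65.3 and 69.2 in Wt cells, and Sftpa1 was under 50 in every pool. The summed intensity of 5 mesothelial markers too was highest in the Cyc pool of experiment 2 and the Wt pool of experiment 1. The sums were 594 and 1944 in Cyc cells against 1091 and 672 in Wt cells. Upk3b, Krt19, Msln and Lrrn4 each had this pattern. The gene Wt1, the brightest marker of that list, did not, at 478.2 and 596.4 in Cyc cells against 440.0 and 597.4 in Wt cells. All 4 measured adipocyte markers were under 50 in every pool, and leukocyte markers summed to 183 and 530 in Cyc and to 192 and 222 in Wt cells, with 3 of 6 under 50 throughout. Without the Cyc pool of experiment 2 or the Wt pool of experiment 1, the log2 difference of Plvap was 0.999 or 1.18. Each of these fits keeps the other of the 2 pools and mixes genotype with experiment, so it cannot show the part of such cells. The part of airway, alveolar, mesothelial and blood cells in the Plvap difference was not tested.

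Other genes that act at caveolae were taken from a list of 25, of which 22 were tested at their brightest probe set. None passed the thresholds in either direction, and with the experiment as a block none did. Their median log2 fold change was 0.09, with -0.12 and 0.29 in the 2 experiments, beside -0.10 and 0.06 over all tested probe sets. Readings were higher in both experiments for 6 and lower in both for 2, against 26.1% and 29.1% of all tested probe sets. The other 14 of the 22 had opposite signs in the experiments. Cd36, a fatty acid carrier of capillaries that resides partly in caveolae, was the brightest, at 10207.5 and 10442.9 in Cyc cells against 12722.6 and 13489.7 in Wt cells. Its Cyc pools lay below both Wt pools, with a log2 fold change of -0.34 (interval from -0.93 to 0.24). Nos3, the endothelial nitric oxide synthase, which Cav1 binds and holds inactive, was at 2490.5 and 3528.7 in Cyc cells against 3067.6 and 3310.8 in Wt cells, without a common direction in the experiments.

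The membrane-remodelling relatives of Ehd2 did not pass the thresholds. Ehd1, Ehd4 and Ehd3 had log2 fold changes of 0.16 (standard error 0.24), 0.10 (0.28) and -0.32 (0.30), the last with -0.75 and 0.11 in experiments 1 and 2. Flna, the actin crosslinker that ties caveolae to stress fibres, had 0.37 (0.27), with both Cyc pools above both Wt pools. Aoc3, an amine oxidase of vessel walls and adipocytes, was at 871.7 and 1642.8 in Cyc cells against 511.8 and 836.5 in Wt cells. Its difference of 0.86 missed both thresholds (limma, unadjusted p = 0.108). With the experiment as a block it missed the 2-fold threshold alone (limma, unadjusted p = 0.00568). The study's own gene lists, drawn from these same arrays with another error model, include Aoc3. Dnm2, the dynamin that pinches vesicles off the membrane, is read by 6 tested probe sets that disagree in size. Its brightest had a log2 fold change of -0.12, while 1423629_at, at 35.7 and 100.4 in Cyc cells against 138.5 and 234.4 in Wt cells, had a fitted value of -1.34 and passed the thresholds (limma, adjusted p = 1). Another, 1425135_a_at, was at -9.5 and 165.3 in Cyc cells against 133.3 and 225.2 in Wt cells. Its groups overlapped, and its fitted value of -1.82 (standard error 1.19) passed the thresholds only with the experiment as a block (limma, unadjusted p = 0.0315, adjusted p = 0.699). The other 3 had fitted values from -0.43 to -0.11 and did not pass.

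**Figure D3:**
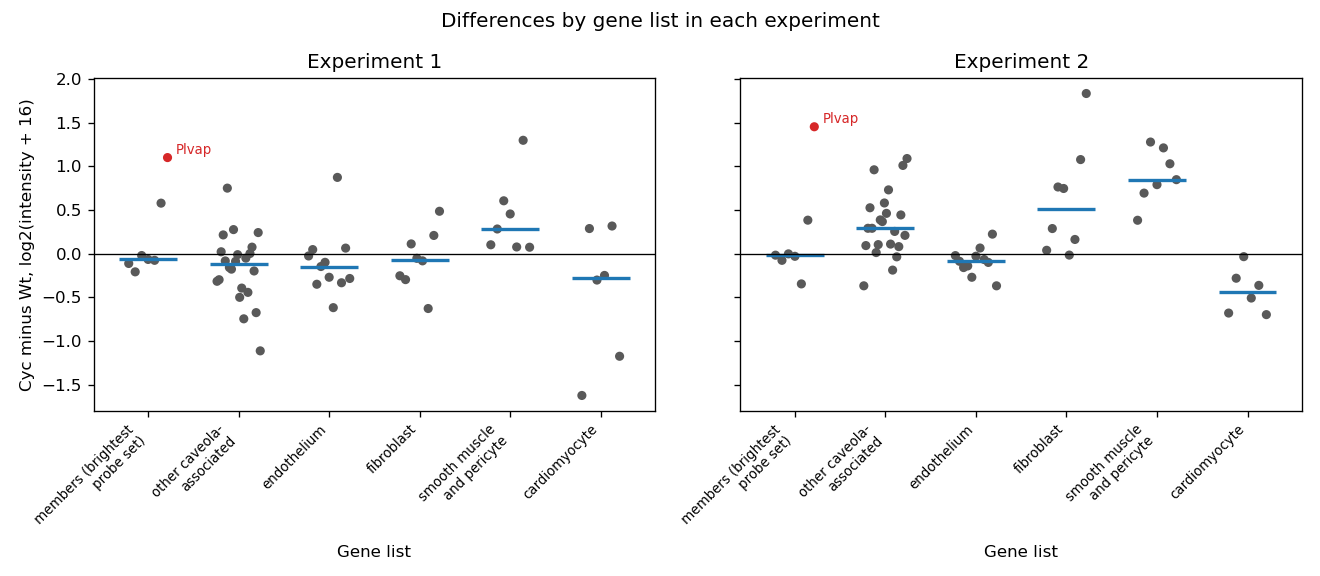
Cyc minus Wt differences of log2(intensity + 16) in experiment 1 (left) and experiment 2 (right), with 1 point per gene at its brightest tested probe set and blue lines at the median of each list. Plvap (red) is at 1.10 and 1.45, the endothelial medians are at -0.15 and -0.09, and those of smooth muscle and pericytes at 0.28 and 0.85.

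Patterns most like those of 3 of the genes were sought among the 17923 other tested probe sets with 1 gene symbol, by the root mean square distance between log2 values centred over the 4 pools. For Plvap the nearest were Masp1 (a protease of the complement lectin pathway), Ip6k2 (an inositol phosphate kinase) and Oas1a (an interferon-induced synthetase). Their distances were 0.10, 0.10 and 0.12, and 1 probe set, that of Masp1, lay within 0.1. Masp1 was at 60.8 and 115.3 in Cyc cells against 26.2 and 27.9 in Wt cells. It thus met the intensity minimum only through its Cyc pools. For Cav1 and Cavin1, which varied little, 1679 and 2103 probe sets lay within 0.1. The nearest to Cav1 were 1810073O08Rik, Pmm2 and Sav1, and those to Cavin1 were Nadk, Mfng and Abhd13. With 4 pools such likeness is a description of these arrays.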

How the data were processed

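The authors labelled 250 ng of total RNA per pool and made the deposited values, normalized intensities on a linear scale, in Resolver 7.2. Background correction and summary method are not given in the sources used here, and values below 0 occur. Of 45101 rows, 64 control rows were left out. Gene names come from a platform annotation in which 34945 probe sets have 1 symbol, 932 several and 9160 none.

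Values below 0 were set to 0, 16 was added and log2 taken, without further normalization. Array medians differed by up to 0.47 (log2), so small differences depend on the scaling, and scaled alternatives are given. Probe sets at 50 or more on at least 2 of 4 arrays were fitted with limma 3.58.1 in R 4.3.3 (two-sided, 2 residual and 2.68 prior degrees of freedom, Benjamini-Hochberg adjustment over all 20680). The study's Resolver error model was not run. The fit was tested on simulated data.

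The methods speak of 2 independent experiments, and each replicate number was taken to stand for 1 of them, because poly-A control transcripts had medians of 250.1 and 213.9 in replicate 1 and of -1.14 and 0.57 in replicate 2. Arrays with the same number also deviated together from the means of their groups (r = 0.447 over probe sets). The labels do not state this pairing in words.

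Genes, lists and thresholds were chosen with earlier results of these data known. All probe sets of the 9 genes are given. Of the caveola-associated list the rule named the 6 brightest genes, of each cell type list the 2 brightest, and of both those past the thresholds, though the text leaves out some marker genes. Dnm2, Ehd3, Gtpbp3, Cnn1 and the alveolar markers were chosen after their values were seen. As alternatives the pseudocount was set to 1 or 50, the filter dropped or raised to 100, arrays quantile normalized or scaled to 1 median, the replicate block added, and each pool left out. For the caveola-associated list, probe sets of a gene were also averaged. Ly6a, the gene of Sca-1, was not analysed here.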

Additional observations from a re-analysis of the deposited data

How the results depend on the processing

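Of 7 alternatives that kept all pools, all left Plvap past the thresholds, with log2 fold changes from 1.20 to 1.31, and no other probe set of the 9 genes was called under any. The replicate block changed none of these calls and gave Plvap 1.28 again. Scaling to the same median turned the brighter Cav2 probe set to 0.008, a value within its error. Leaving out single pools, which without a block mixes genotype and experiment, gave 0 to 1 called probe set of these genes, with Plvap from 0.999 to 1.55. These fits turned the sign of values near 0, with ranges from -0.13 to 0.11 for Cav2 (1417327_at), from -0.14 to 0.042 for Cavin1, and for Ehd2 from -0.67 to 0.25 (1424157_at), from -0.39 to 0.41 (1459823_at), from -0.17 to 0.32 (1435785_at) and from -0.52 to 0.13 (1427729_at). Cavin2 remained lower at its 3 probe sets and Cavin3 higher under these 7 alternatives and without any 1 pool.

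Over all tested probe sets, 152 were called higher and 24 lower. The higher count was 93 with a pseudocount of 50 and ran from 94 to 536 when a pool was left out. The lower count was 46 with a pseudocount of 1, 37 with no filter, 37 with scaling to the same median and 47 with the replicate block, and ran from 26 to 1007 when a pool was left out, with 1007 without the Cyc pool of replicate 2. For the caveola-associated list the count of higher genes ran from 0 to 1 and the median from -0.16 to 0.40 when a pool was left out, the highest values being those without the Cyc pool of replicate 1. The median kept a positive sign under the alternatives that kept all pools. With 2 pools per group, 8 of the 13 intervals stayed within a 2-fold change either way.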
